A study of Mus musculus with 12 samples.

Results

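A set of 10 genes of glucose use in astrocytes was followed here, from the uptake of glucose to the release of lactate and the storage of glycogen. They are Slc2a1, Hk1, Pfkm, Pfkfb3, Aldoa, Ldha, Ldhb, Slc16a1, Pygb and Gys1, and they were picked by gene name, with earlier results of these data known. All 10 were found under their exact symbols among the 45777 genes of the deposited gene table, and all 10 passed the filter on low counts.

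Cortical astrocytes of mice were profiled by RNA-seq at postnatal day 14 in 4 groups of 3 libraries. Cre- animals carried floxed alleles of Nr3c1, the gene of the glucocorticoid receptor (Nr3c1 flox/flox). AGR cKO animals carried the same floxed alleles and the Aldh1l1-CreERT2 transgene, whose Cre is driven by an astrocyte promoter and is active only after tamoxifen. Each genotype was kept as control or reared under early life stress (ESD in the labels), in which pups were kept away from the dam for 3 hours a day from postnatal day 1 to 14. All 4 groups, the Cre- controls included, received 4-hydroxytamoxifen on postnatal days 5 to 7. No group went without the drug, and whether its effect was alike in all groups was not tested. No group carried the transgene without the floxed alleles, so Cre activity and receptor loss cannot be told apart. The cells were purified by immunopanning and magnetic beads, and the gene-level reads do not separate cells with and without recombination. The labels do not say whether the 3 libraries of a group came from separate animals or from pooled animals, so the p-values measure the spread between these libraries, which may be technical.

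Glucose enters a cell through transporters of the SLC2A family, is trapped as glucose 6-phosphate by hexokinase, and is split to pyruvate by glycolysis. Lactate dehydrogenase interconverts pyruvate and lactate, and monocarboxylate transporters carry lactate across the membrane. Astrocytes hold most of the glycogen of the brain, and their release of lactate to neurons is a long-studied route of energy supply. Glucocorticoids are classical regulators of glucose metabolism in liver, muscle and fat.

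Levels are given as CPM, counts scaled to each library's size by the trimmed mean of M values, when libraries are compared. Levels of different genes are compared only as TPM, which are also divided by transcript length. Total counts per library ran from 42603546 to 52130081. Differences are log2 fold changes with their standard error (SE), from edgeR's quasi-likelihood test over 19163 genes, and a gene was called where its p-value, adjusted by the Benjamini-Hochberg method over all of them, was under 0.05. In the AGR cKO libraries Nr3c1 itself was lower. Its level was 214, 210 and 237 CPM in Cre- control, 209, 205 and 199 CPM in Cre- ESD, 102, 93.2 and 108 CPM in AGR cKO control, and 90.5, 66.6 and 95.9 CPM in AGR cKO ESD. The genotypes did not overlap, and the averaged difference was -1.2 ± 0.08 on the log2 scale (adjusted p = 0.000203).

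Markers of other cells varied between the libraries. The 12 astrocyte markers summed to between 39200 and 54400 CPM. This sum mostly gives the levels of Slc1a2 (18100 to 29900 CPM) and Slc1a3 (7180 to 9620 CPM). Single markers varied to different extents, from 154 to 727 CPM for Gjb6 and from 216 to 287 CPM for Sox9. The 12 endothelial markers (Cldn5, Pecam1, Flt1 and others) summed to 2110, 411 and 762 CPM in Cre- control, 1260, 1030 and 499 CPM in Cre- ESD, 414, 513 and 854 CPM in AGR cKO control, and 291, 537 and 543 CPM in AGR cKO ESD. The first Cre- control library stood apart. It also held the lowest Pfkm, Ldhb and Pygb and the highest Slc2a1, Hk1 and Slc16a1 of the series. The 12 microglial markers summed to 339 to 997 CPM in Cre- control, 460 to 792 CPM in Cre- ESD, 183 to 433 CPM in AGR cKO control and 158 to 417 CPM in AGR cKO ESD. No marker of either list was at 0 in all libraries. All 12 markers of each list had lower fitted values in AGR cKO than in Cre-, with median log2 fold changes of -0.96 for endothelium and -1.12 for microglia averaged over both conditions. An unadjusted p under 0.05 was reached by 10 endothelial and 12 microglial markers. After adjustment edgeR called 0 of either list, and DESeq2 called 0 endothelial and 7 microglial markers. Of the 7 tested markers of ependyma and choroid plexus, edgeR called 4 lower in the same comparison (median log2 fold change -0.91), at a summed level of 49.1 to 128 CPM over all libraries. All 5 erythroid markers were lower without a call by edgeR (median -1.04, 5 at an unadjusted p under 0.05, 2 called by DESeq2), as were all 10 mural and fibroblast markers (median -0.26, 1 at that level). Neuronal (median 0.04), oligodendrocyte (0.07) and precursor (-0.04) markers had 0 calls by edgeR, and of the 12 astrocyte markers 1 rose and 1 fell. DESeq2 called 1 precursor marker, Pdgfra, lower. Within conditions the neuronal values went in opposite directions. All 12 were higher in AGR cKO in control (median 0.44, DESeq2 calls Slc17a7 and Syt1). Under ESD 10 of 12 were lower (median -0.49, DESeq2 call Tubb3). For the interaction all 12 were negative (median -1, 5 at an unadjusted p under 0.05 by edgeR, DESeq2 call Slc17a7). The part of these cells in the results on glucose genes was not tested beyond the covariate values given further on. In bulk RNA, fewer cells of a type and less RNA per cell cannot be told apart.

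The promoters of 4 of the genes are printed first, because their genes mark the contrasts described further on: Slc2a1 and Slc16a1 varied together over the libraries, and Ldha and Ldhb encode the subunits of 1 enzyme. Each run is the RefSeq sequence (GRCm38.p6) from 250 to 26 bases before the annotated start, 5′ to 3′ on the gene's strand. Capitals mark ACGTG on either strand, the core letters of the hypoxia response element, which overlaps with itself in CACGTG.
Slc2a1, chr4:119108495-119108719, plus strand: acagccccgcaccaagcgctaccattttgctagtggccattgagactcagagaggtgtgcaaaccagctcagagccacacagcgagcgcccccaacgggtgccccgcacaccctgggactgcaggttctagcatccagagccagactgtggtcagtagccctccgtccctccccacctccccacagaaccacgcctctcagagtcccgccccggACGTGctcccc
Slc16a1, chr3:104638414-104638638, plus strand: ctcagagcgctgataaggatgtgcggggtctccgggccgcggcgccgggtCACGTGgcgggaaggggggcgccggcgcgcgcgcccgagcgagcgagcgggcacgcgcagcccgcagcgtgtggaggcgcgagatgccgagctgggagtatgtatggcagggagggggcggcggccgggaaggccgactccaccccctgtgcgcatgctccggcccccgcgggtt
Ldha, chr7:46845554-46845778, plus strand: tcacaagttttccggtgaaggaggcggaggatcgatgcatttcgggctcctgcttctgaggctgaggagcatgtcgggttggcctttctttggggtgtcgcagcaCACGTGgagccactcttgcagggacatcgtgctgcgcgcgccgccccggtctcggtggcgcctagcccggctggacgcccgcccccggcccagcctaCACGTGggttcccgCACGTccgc
Ldhb, chr6:142507983-142508207, minus strand: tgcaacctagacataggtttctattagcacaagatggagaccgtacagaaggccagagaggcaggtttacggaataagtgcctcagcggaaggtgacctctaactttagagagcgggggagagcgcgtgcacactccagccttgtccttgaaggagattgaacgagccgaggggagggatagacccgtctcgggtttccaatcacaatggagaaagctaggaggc

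In these windows ACGTG was counted on both strands. It occurred once in the Slc2a1 window, 36 bases before the start. It occurred 2 times in the Slc16a1 window, as 1 CACGTG, and 5 times in the Ldha window, with CACGTG at 2 places. The Ldhb window held none. Ldhb also had the lowest share of G and C of the 4 windows, 53.3%, against 76.4% in Slc16a1. RefSeq gave 18 promoters for the 10 genes, each 300 bases long, from 250 bases before to 50 after a start. Of these 18 promoters, 11 held ACGTG, and they belonged to 8 of the 10 genes, the exceptions being Ldhb and Gys1. Among all 32851 mouse promoters of the same length 19.6% held it, and among those of tested genes 23.1%. These shares are per promoter. Some of the 10 genes had several starts, up to 4 in Pfkm, and no share per gene was computed to set beside the 8 of 10. The full glucocorticoid response element, AGAACA followed by any 3 bases and TGTTCT, searched on both strands, was in 0 of the 18 promoters and in 0.00913% of all promoters. Its AGAACA part was in 4 of the 18 promoters, those of Hk1, Pfkm and Aldoa, and in 19.0% of all promoters and 13.6% of those of tested genes. Of the 3 Aldoa promoters 2 overlap, and the same ACGTG and the same AGAACA are counted in both. These matches describe letters in the windows and show no binding.

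All 10 genes were expressed well above the middle of the tested genes, between the 82.4th percentile of mean TPM for Gys1 and the 99.5th for Ldhb. Over the 12 libraries the order by TPM was Ldhb (889 ± 87.5, SD), Aldoa (750 ± 41.8), Pygb (669 ± 42.0), Pfkm (445 ± 40.8), Slc2a1 (317 ± 116), Ldha (282 ± 42.0), Slc16a1 (207 ± 122), Hk1 (81.4 ± 6.16), Pfkfb3 (73.7 ± 7.24) and Gys1 (54.9 ± 4.53). Most neighbours in this order kept it in 11 or 12 of the 12 libraries. Slc2a1 and Ldha did not differ beyond their spread, since Slc2a1 was higher in 8 of 12 libraries, and Ldha was above Slc16a1 in 10 of 12.

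Within their families, several of these genes were the main isoform by TPM. Hk1, the hexokinase that commits glucose to the cell, made up 83.3% ± 5.31 (SD over 12 libraries) of hexokinase TPM. Pfkm, the muscle-type phosphofructokinase, made up 74.1% ± 2.79 of its family. Pygb, the brain form of the enzyme that breaks down glycogen, made up 86.8% ± 4.27 of glycogen phosphorylase TPM, and Gys1, which builds glycogen, made up at least 99.6% of glycogen synthase TPM in every library. Slc16a1, the monocarboxylate transporter MCT1, made up 98.7% ± 0.507 of the 4 lactate transporters compared. Slc2a1, the glucose transporter GLUT1, made up 72.1% ± 6.42 of the 8 SLC2A genes compared. The libraries also held markers of other cells, and the part of those cells in the shares of Slc16a1 and Slc2a1 was not tested. Ldhb, the heart-type lactate dehydrogenase subunit, made up 75.4% ± 3.63 and Ldha, the muscle-type subunit, 24.0% ± 3.66. Aldoa was the exception, at 20.8% ± 3.39 of aldolase TPM against 79.1% ± 3.4 for Aldoc, the form known as an astrocyte marker. Pfkfb3, which makes the activator of phosphofructokinase, shared its family with Pfkfb2 (33.8% ± 1.86) and Pfkfb4 (21.4% ± 2.84) at 44.2% ± 2.02.

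The genes differed widely in how steady they were. Across the 12 libraries the coefficient of variation in CPM was 55.7% for Slc16a1 and 34.2% for Slc2a1. It was 14.3% for Ldha, 12% for Ldhb and 10.9% for Pfkm. It was under 10% for Gys1 (9.19%), Pfkfb3 (7.96%), Pygb (7.68%), Aldoa (6.05%) and Hk1 (5.41%). The 2 membrane transporters were thus the most variable of the set, and the hexokinase and the aldolase the steadiest.

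**Figure D1:**
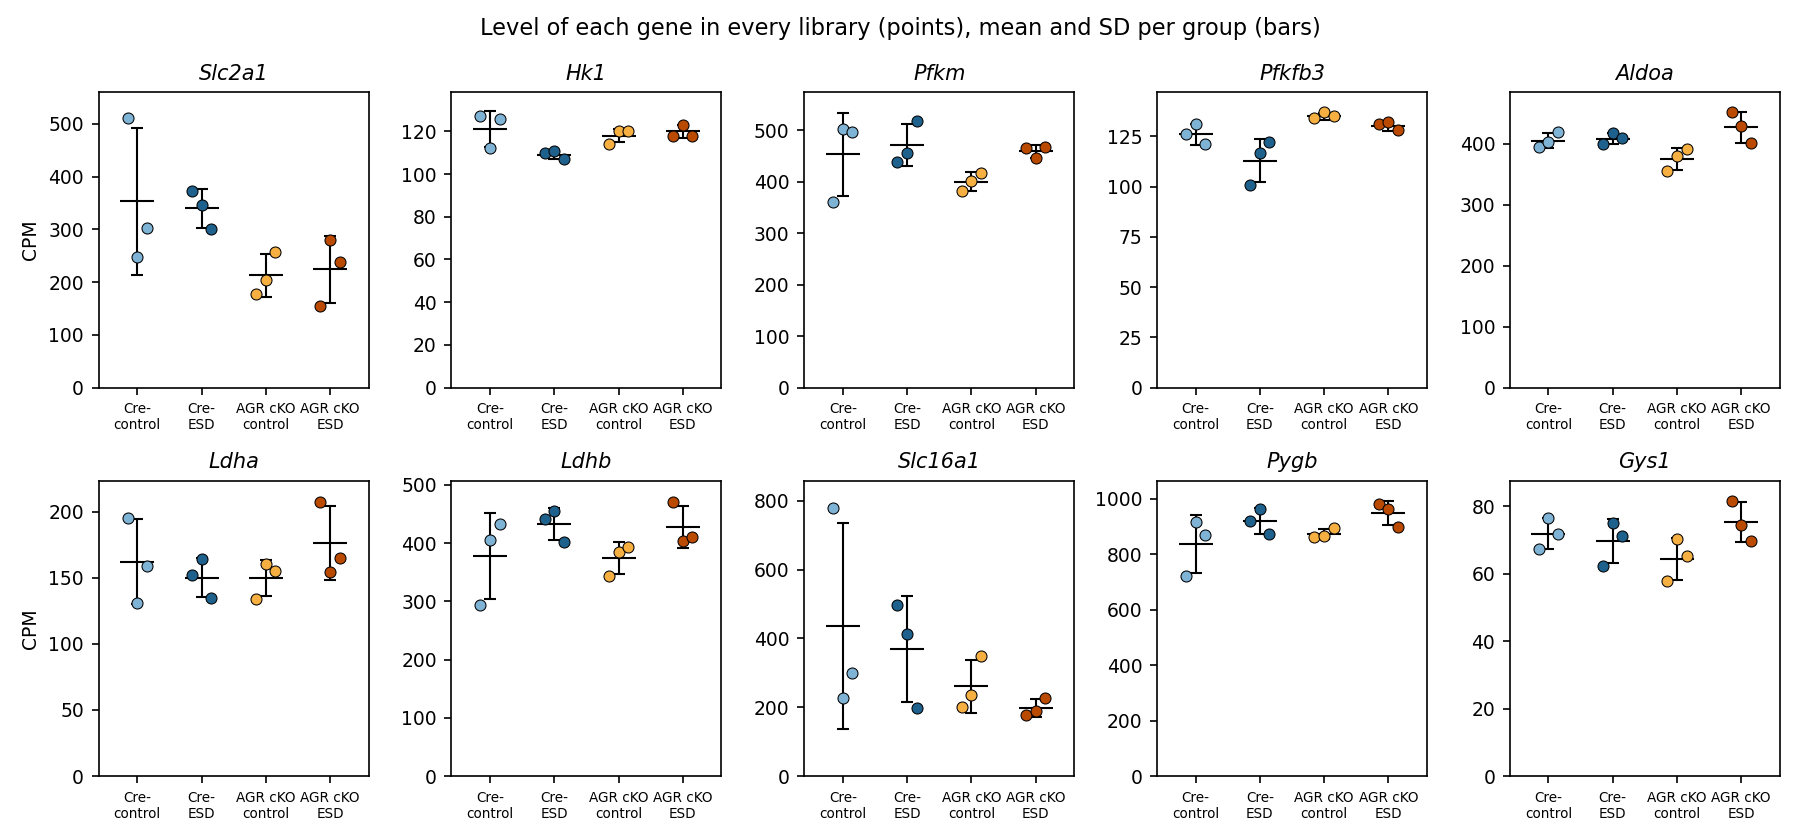
Level of each of the 10 genes in CPM (y axis, from 0) in the 4 groups (x axis); each point is 1 library, and bars give the mean and SD of 3 libraries. Slc2a1 and Slc16a1 spread the most, with their highest point in Cre- control (511 and 778 CPM), while Hk1 stays between 107 and 127 CPM.

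The first question was how the genes differ between genotypes. None of the 10 genes passed the test. Averaged over both rearing conditions, 0 of 10 were called by edgeR, where 3.49% of all tested genes were, and 3 of the 10 had an unadjusted p under 0.05, against 20% of all genes. DESeq2 called 1 of them, Slc2a1, and limma on log2 TPM called 0. In control animals edgeR called 0 of 10 (0.0157% of all genes) with 1 at an unadjusted p under 0.05 (10.2% of all genes), and under ESD it called 0 of 10 (1.04%) with 2 (15.6%). The counts at the unadjusted threshold are near these shares. DESeq2 and limma called 0 of 10 in both of these comparisons. The median log2 fold change of the 10 genes was -0.11 in control, 0.06 under ESD and -0.02 averaged, against -0.01, 0 and 0 over all genes tested.

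Slc2a1 encodes GLUT1, the glucose transporter of both astrocytes and the endothelium of the blood-brain barrier. Its level was 511, 248 and 302 CPM in Cre- control and 372, 347 and 300 CPM in Cre- ESD. It was 177, 204 and 258 CPM in AGR cKO control and 154, 279 and 238 CPM in AGR cKO ESD. Under ESD all 3 AGR cKO libraries lay below all 3 Cre- libraries, whereas the control groups overlapped at 248 and 258 CPM. The log2 fold change between genotypes was -0.73 ± 0.27 in control (adjusted p = 0.377), -0.6 ± 0.27 under ESD (0.304) and -0.67 ± 0.19 averaged, with a 95% interval from -1.08 to -0.25 (0.0767). DESeq2 gave the same averaged value with an adjusted p of 0.00703. edgeR called the gene (-0.76, adjusted p = 0.0394) only without the second Cre- control library, of the 12 libraries left out in turn. Without the first Cre- control library the value was -0.49 (0.122).

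Slc16a1 encodes MCT1, which carries lactate and is found on astrocytes, oligodendrocytes and endothelium. Its level was 778, 228 and 299 CPM in Cre- control and 497, 414 and 199 CPM in Cre- ESD. It was 200, 235 and 348 CPM in AGR cKO control and 177, 190 and 227 CPM in AGR cKO ESD. The high values were those of the first Cre- control library and of the first and second Cre- ESD libraries, and all groups overlapped. The log2 fold change between genotypes was -0.74 ± 0.43 in control (adjusted p = 0.603), -0.9 ± 0.43 under ESD (0.34) and -0.82 ± 0.3 averaged, with a 95% interval from -1.48 to -0.15 (0.16). Without the first Cre- control library the averaged value was -0.46 (0.316).

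Both transporters moved with the endothelial and the microglial markers. The 5 libraries with the highest summed endothelial level were also the 5 with the highest Slc16a1, in the same order, and the top 3 were also the top 3 of Slc2a1. The 5 libraries with the highest summed microglial level were also the 5 with the highest Slc2a1, in the same order, and the top 3 were also the top 3 of Slc16a1. With the mean log2 level of the endothelial markers as a covariate, a choice made after seeing the data, the averaged genotype difference of Slc2a1 was -0.29 (adjusted p = 0.125) and that of Slc16a1 was -0.08 (0.835). With the microglial markers as the covariate the values were -0.07 (0.937) for Slc2a1 and 0.18 (0.905) for Slc16a1. The genes whose levels were most like theirs across the 12 libraries, by Pearson's r of log2 CPM among 11763 genes that averaged 5 CPM or more, were Ceacam1 (r = 0.984), Ncf1 (0.983) and Igf1r (0.978) for Slc2a1. They were Slc40a1 (0.993), Tiam1 (0.989) and Aplnr (0.989) for Slc16a1. Each r describes 12 libraries whose marker levels of other cells differed, and the part of those cells in r was not tested.

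**Figure D2:**
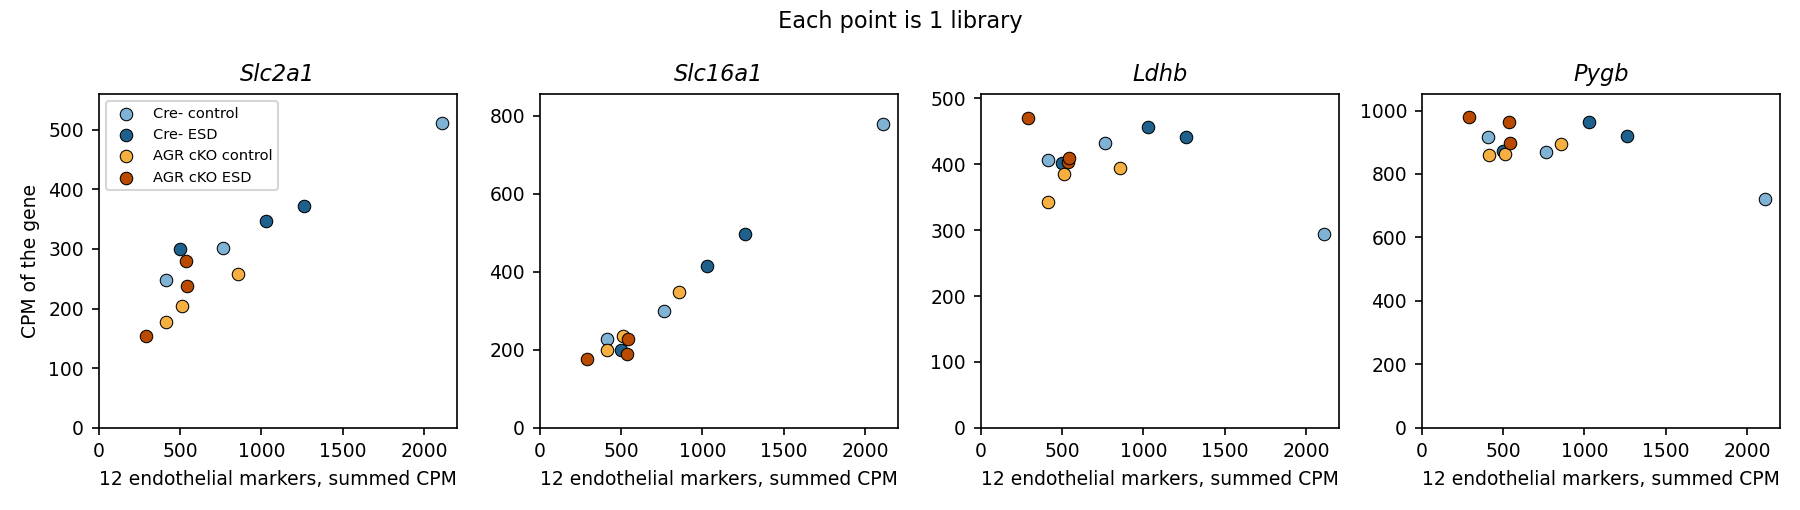
CPM of Slc2a1, Slc16a1, Ldhb and Pygb (y axes, from 0) against the summed CPM of 12 endothelial markers (x axis); each point is 1 library, coloured by group. The first Cre- control library, at 2110 CPM of markers, is the highest for both transporters and the lowest for Ldhb (294 CPM) and Pygb (721 CPM). The microglial markers, which are not plotted, also had their highest sum in this library (997 CPM).

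Pfkfb3 makes fructose 2,6-bisphosphate, which activates phosphofructokinase. It was at 126, 131 and 121 CPM in Cre- control, 101, 117 and 122 CPM in Cre- ESD, 134, 137 and 135 CPM in AGR cKO control, and 131, 132 and 128 CPM in AGR cKO ESD. Within each rearing condition all AGR cKO libraries were above all Cre- libraries, by a small amount. The log2 fold change was 0.11 ± 0.07 in control (adjusted p = 0.668), 0.2 ± 0.07 under ESD (0.22) and 0.15 ± 0.05 averaged, with an interval from 0.04 to 0.27 (0.123).

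Hk1 was at 127, 112 and 126 CPM in Cre- control, 110, 111 and 107 CPM in Cre- ESD, 114, 120 and 120 CPM in AGR cKO control, and 118, 123 and 118 CPM in AGR cKO ESD. Only under ESD did the genotypes not overlap, with AGR cKO higher by 0.13 ± 0.06 (adjusted p = 0.355). The averaged difference of Hk1 was 0.04 ± 0.05 (0.668). Aldoa, which splits fructose 1,6-bisphosphate, was at 394, 402 and 419 CPM in Cre- control and 355, 380 and 391 CPM in AGR cKO control, 2 groups that did not overlap. It was at 399, 417 and 409 CPM in Cre- ESD and 451, 429 and 401 CPM in AGR cKO ESD, which did overlap. Its genotype differences were -0.11 ± 0.07 in control (adjusted p = 0.64) and 0.07 ± 0.07 under ESD (0.701).

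Pfkm, which catalyses the committed step of glycolysis, was at 361, 502 and 497 CPM in Cre- control, 439, 456 and 517 CPM in Cre- ESD, 382, 401 and 417 CPM in AGR cKO control, and 466, 445 and 467 CPM in AGR cKO ESD. Its genotype groups overlapped in both conditions, with an averaged difference of -0.11 ± 0.08 (adjusted p = 0.532). The lowest Pfkm value of the series was that of the first Cre- control library.

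The glycogen enzymes showed no difference between genotypes that passed the test. Pygb was at 721, 917 and 870 CPM in Cre- control, 920, 964 and 871 CPM in Cre- ESD, 860, 864 and 894 CPM in AGR cKO control, and 981, 964 and 899 CPM in AGR cKO ESD. Gys1 was at 67.3, 76.5 and 71.8 CPM, 62.3, 75.1 and 71.3 CPM, 57.9, 70.3 and 65.3 CPM, and 81.5, 74.5 and 69.8 CPM in the same order of groups. The averaged genotype difference was 0.05 ± 0.07 for Pygb, with an interval from -0.09 to 0.2, and -0.02 ± 0.07 for Gys1, with an interval from -0.17 to 0.13. All genotype groups of both genes overlapped.

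The same 10 genes were then compared between rearing conditions. Again none passed the test. ESD against control gave 0 of 10 calls by edgeR in Cre- (0% of all genes called), 0 of 10 in AGR cKO (0%) and 0 of 10 averaged over both genotypes (0%). The interaction of genotype and ESD gave 0 of 10 (0%). At an unadjusted p under 0.05 there was 1 of the 10 in Cre- (7.19% of all genes), 2 in AGR cKO (7.58%), 0 averaged (10.4%) and 0 for the interaction (4.49%). DESeq2 and limma called 0 of 10 in each of these comparisons. The median log2 fold change of the 10 genes was -0.05 in Cre- and 0.15 in AGR cKO, against -0.02 and 0 over all genes tested.

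In AGR cKO, 5 of the 10 genes did not overlap between ESD and control, where 16.6% of all genes did not. Pfkm, Aldoa, Ldhb and Pygb were higher under ESD in every library and Pfkfb3 was lower. The differences were small, at 0.2 ± 0.12 for Pfkm, 0.19 ± 0.07 for Aldoa, 0.19 ± 0.13 for Ldhb, 0.12 ± 0.09 for Pygb and -0.06 ± 0.07 for Pfkfb3, with adjusted p-values from 0.647 for Aldoa to 0.892 for Pfkfb3. Gys1 overlapped by 1 pair of libraries, at 70.3 and 69.8 CPM, and differed by 0.22 ± 0.1 (adjusted p = 0.656). Marker levels of other cells, none called by edgeR, are given beside these values. The 10 mural and fibroblast markers summed to 4650 to 5400 CPM in control and 1740 to 3740 CPM under ESD, without overlap (9 lower, median log2 fold change -0.7, 6 at an unadjusted p under 0.05). Of the 12 neuronal markers 11 were lower (median -0.76, 7 at that level), at summed levels of 501 to 597 and 517 to 573 CPM. Map2 alone was at 547, 490 and 457 CPM in control and 533, 492 and 548 CPM under ESD. The neuronal sums thus mostly give the level of Map2 and not that of the other markers. edgeR called 0 of these 2 lists, and DESeq2 called 0 mural and 2 neuronal markers. All 5 erythroid (median -0.85), all 12 endothelial (-0.36) and all 7 tested ependyma and choroid markers (-0.38) were also lower, with 0 calls by edgeR or DESeq2. Of the 12 microglial markers 6 were higher (median 0), and of the 12 astrocyte markers 10 (0.07). The part of any of these cells in the values of the 5 genes was not tested. In Cre-, 1 of the 10 genes did not overlap, against 11.1% of all genes. This was Hk1, with a log2 fold change under ESD of -0.15 ± 0.06 (0.691).

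Between genotypes, 2 of the 10 genes did not overlap in control (Pfkfb3 higher and Aldoa lower in AGR cKO) and 3 did not under ESD (Hk1 and Pfkfb3 higher, Slc2a1 lower), against 16.9% and 19.9% of all genes. With the 6 libraries of each genotype pooled, 0 of the 10 genes were free of overlap (2.77% of all genes), and with all 6 of each rearing condition, 0 of the 10 (0.459%). For the difference between the ESD effects of the 2 genotypes, the smallest unadjusted p-values were those of Gys1 (0.27 ± 0.14), Hk1 (0.17 ± 0.09) and Aldoa (0.18 ± 0.1), each with an adjusted p of 0.999.

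**Figure D3:**
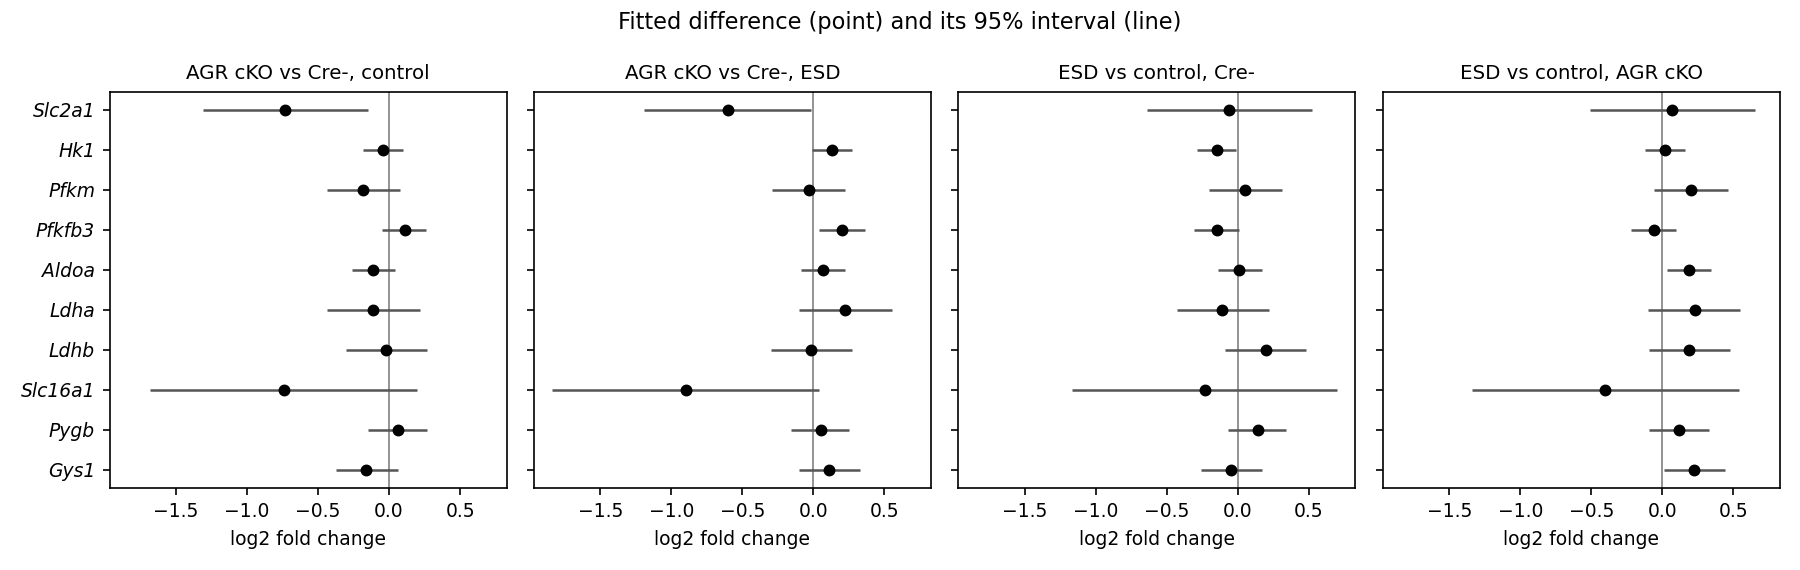
Fitted log2 fold change (x axis) of each gene (y axis) in 4 comparisons; points are the estimates and lines their 95% intervals. The lines of Slc2a1 and Slc16a1 are the widest, and those of Hk1, Pfkfb3 and Aldoa are the narrowest.

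Ldha and Ldhb encode the subunits of lactate dehydrogenase, the enzyme that interconverts pyruvate and lactate, and tetramers rich in the Ldha product are classically linked with lactate formation. Ldha was at 195, 131 and 159 CPM in Cre- control, 152, 164 and 135 CPM in Cre- ESD, 134, 160 and 155 CPM in AGR cKO control, and 207, 154 and 165 CPM in AGR cKO ESD. Ldhb was at 294, 406 and 433 CPM, 442, 456 and 402 CPM, 343, 385 and 394 CPM, and 470, 403 and 410 CPM in the same order. In both genes the genotypes overlapped in each condition, and the averaged genotype differences were 0.06 ± 0.11 for Ldha (adjusted p = 0.829) and -0.02 ± 0.09 for Ldhb (0.947).

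The ratio of Ldha to Ldhb TPM does not depend on how libraries are scaled. It was 0.530, 0.258 and 0.294 in Cre- control, 0.276, 0.288 and 0.268 in Cre- ESD, 0.314, 0.333 and 0.316 in AGR cKO control, and 0.353, 0.307 and 0.322 in AGR cKO ESD. Apart from the first Cre- control library, every Cre- library lay below every AGR cKO library. With all 12 libraries the genotypes differed by 0.07 on the log2 scale, which an exact two-sided permutation test of 6 against 6 did not separate (p = 0.788, adjusted over 6 tests 0.96). When each library was left out in turn, the difference was 0.23 without this one (adjusted p = 0.026 in the same exact test) and 0.02 to 0.09 without any of the others (0.874 to 1). Since this library is the sole exception to the separation, the p without it restates that order and is no further evidence. That library also held the highest endothelial and microglial marker levels, and the part of these cells in its ratio was not tested.

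Within ESD alone the 3 AGR cKO ratios were above the 3 Cre- ratios, by 0.24 on the log2 scale, with an exact p of 0.1, the smallest that 3 against 3 libraries can give, and an adjusted p of 0.6. Within control the difference was -0.09 (exact p = 1). For ESD against control the differences were -0.31 in Cre- (exact p = 0.6) and 0.03 in AGR cKO (exact p = 0.8), and -0.14 over both genotypes (exact p = 0.483). None of the 6 exact tests passed after adjustment when all libraries were used.

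**Figure D4:**
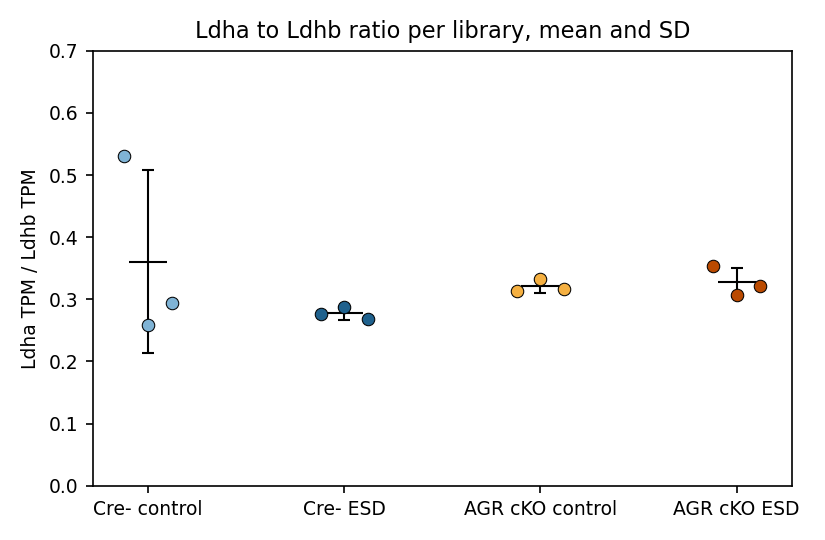
Ratio of Ldha to Ldhb TPM (y axis, from 0) in the 4 groups (x axis); each point is 1 library, and bars give the mean and SD of 3 libraries. One Cre- control library stands at 0.530, and the other 11 lie between 0.258 and 0.353.

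The deposited transcript table listed 47 transcripts of the 10 genes, of which 36 passed the filter. edgeR called 0 of the 36 in every comparison, while the shares of all 62862 tested transcripts called were 0.00954% for ESD in Cre-, 0.00318% for ESD in AGR cKO, 0.00159% for genotype in control, 0.00795% for genotype under ESD, 0.00636% for the interaction, 0.0143% for genotype averaged and 0.00954% for ESD averaged. At an unadjusted p under 0.05 there were 0, 4, 9, 1, 2, 9 and 2 of the 36 in the same order, against 5.1%, 4.57%, 5.89%, 5.74%, 4.95%, 7.82% and 5.69% of all tested transcripts. For ESD in AGR cKO, genotype in control and genotype averaged, most of these were transcripts of Pfkfb3. They went in both directions and share reads, so the counts do not describe separate genes. The smallest adjusted p was 0.405. A single transcript carried most of the TPM of Slc2a1 (97.8%), Hk1 (96.3%), Ldha (97.0%) and Ldhb (91.9%). Slc16a1, Pygb and Gys1 had 1 transcript each. Aldoa was carried by 2 transcripts, at 52.6% and 39.4%. Their order was turned in the first AGR cKO control library, at 31.9% and 63.9%.

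Pfkfb3 was the gene with the most divided output. Of its 14 listed transcripts, a predicted model held 34.9% of the TPM on average but between 12.7% and 70.6% in single libraries. Among Cre- control libraries its share was 13.5%, 16.3% and 18.5%, and among AGR cKO control libraries it was 50.6%, 59.9% and 70.6%. The ESD groups did not follow this split, with 21.1%, 56.2% and 12.7% in Cre- and 17.6%, 59.0% and 23.0% in AGR cKO. Between genotypes in control, the counts of this transcript differed by 2.07 ± 0.6 and those of the next most abundant one by -1.63 ± 0.52, each with an adjusted p of 0.833. Transcript counts of 1 gene are estimates that share reads, so these shares are less certain than the gene's total.

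Other genes of glucose use were read from 6 lists of 84 genes, of which 80 were tested. Calls appeared in the averaged genotype comparison alone, where 5 of the 80 genes passed (in AGR cKO 1 rose and 4 fell) against 3.49% of all genes. An unadjusted p under 0.05 was reached by 19 of the 80, near the 20% of all genes. edgeR called 0 of the 80 in each of the other 6 comparisons. DESeq2 called 2 of them in control (Txnip and Pygm, both lower in AGR cKO), 4 under ESD (Txnip and Pygm lower, Ugp2 and Eno1 higher), and 0 in the other 4 comparisons. By edgeR, the numbers at an unadjusted p under 0.05 were 3 for ESD in Cre-, 8 for ESD in AGR cKO, 10 for genotype in control, 13 for genotype under ESD, 1 for the interaction and 12 for ESD averaged, against 7.19%, 7.58%, 10.2%, 15.6%, 4.49% and 10.4% of all genes. The median log2 fold change of the 80 genes in the averaged genotype comparison was 0, as over all genes.

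Txnip was the called gene of the glucose transport list, where 1 of 9 tested genes fell and 0 rose. It encodes an arrestin-like protein that restrains glucose uptake by removing transporters from the membrane. Its level was 198, 203 and 276 CPM in Cre- control, 237, 158 and 298 CPM in Cre- ESD, 113, 113 and 123 CPM in AGR cKO control, and 95.4, 93.4 and 147 CPM in AGR cKO ESD. Every AGR cKO library lay below every Cre- library. The averaged log2 fold change was -1 ± 0.16 (adjusted p = 0.01), and edgeR kept the call without each of the 12 libraries in turn. The size was -0.96 ± 0.23 in control (0.235) and -1.05 ± 0.23 under ESD (0.0562), neither of which was called. Averaged over conditions, it was -0.93 (0.113) with the microglial markers as a covariate and -1.04 (0.0149) with the endothelial ones.

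The glycogen list held 2 called genes of 26 tested, 1 lower and 1 higher. Pygm, the muscle form of glycogen phosphorylase, was at 86.5, 113 and 140 CPM in Cre- control, 85.1, 79.5 and 169 CPM in Cre- ESD, 50, 57.1 and 57.1 CPM in AGR cKO control, and 59.3, 46.6 and 61.5 CPM in AGR cKO ESD. It fell by 1.02 ± 0.19 on the log2 scale averaged over conditions (adjusted p = 0.0159), with every AGR cKO library below every Cre- library. Its share of glycogen phosphorylase TPM was 14.9% ± 2.17 in Cre- control and 13.5% ± 5.75 in Cre- ESD, against 7.51% ± 0.458 and 7.14% ± 1.16 in the AGR cKO groups (SD, n = 3). Pygb, the main form, did not pass the test, as given above. The Pygm call was lost without the second AGR cKO control library (-1.04, 0.0549) and with the microglial covariate (-1.23, 0.0579). It was kept with the endothelial covariate (-1.21, 0.00589).

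Ugp2, which makes the UDP-glucose that glycogen synthase uses, was the 1 called gene that rose. It was at 220, 244 and 265 CPM in Cre- control, 222, 238 and 225 CPM in Cre- ESD, 305, 308 and 299 CPM in AGR cKO control, and 302, 252 and 322 CPM in AGR cKO ESD. Only the second AGR cKO ESD library reached into the Cre- range. The averaged difference was 0.34 ± 0.07 (adjusted p = 0.0239). The call was lost without 5 of the 12 libraries (each of the 3 AGR cKO control, the first AGR cKO ESD and the first Cre- ESD library), with values from 0.33 to 0.35, and with the endothelial (0.3, 0.0693) and microglial (0.29, 0.247) covariates.

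In the glycolysis list 2 of 18 tested genes fell and 0 rose. Pfkp, the platelet-type phosphofructokinase, ranged from 191 to 253 CPM in Cre- (median 220) and from 152 to 209 CPM in AGR cKO (median 167), with an averaged difference of -0.35 ± 0.08 (adjusted p = 0.0423). Aldoc, the aldolase typical of astrocytes, ranged from 2290 to 4020 CPM in Cre- (median 3230) and from 1980 to 2600 CPM in AGR cKO (median 2280), with -0.51 ± 0.13 (0.0495). The genotypes of both genes overlapped over all 12 libraries. Both calls stood close to the threshold, and when each library was left out in turn Pfkp was called in 3 of 12 fits (those without the first Cre- control, the first Cre- ESD or the third AGR cKO ESD library) and Aldoc in 1 (that without the first Cre- control library). The values over these fits ran from -0.4 to -0.29 for Pfkp and from -0.6 to -0.42 for Aldoc. With the microglial covariate they were -0.42 (0.16) and -0.65 (0.118), and with the endothelial one -0.42 (0.0303) and -0.65 (0.0149). Without a filter on low counts they were -0.35 (0.0521) and -0.5 (0.0544). Their partners Pfkm and Aldoa had averaged values of -0.11 ± 0.08 and -0.02 ± 0.05, and the difference between partners was not tested.

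**Figure D5:**
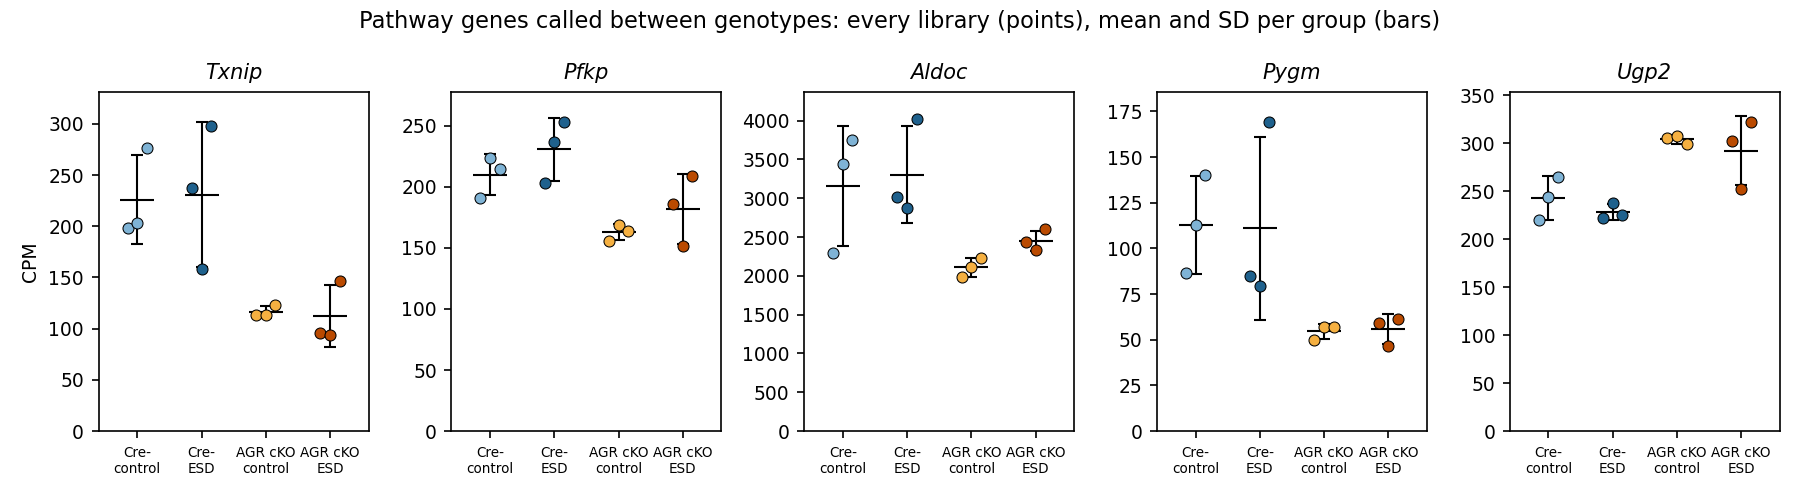
CPM (y axes, from 0) of the 5 called pathway genes Txnip, Pfkp, Aldoc, Pygm and Ugp2 in the 4 groups (x axis); each point is 1 library, and bars give the mean and SD of 3 libraries. For Txnip and Pygm every AGR cKO point lies below every Cre- point.

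The 3 other lists held 0 called genes by edgeR or DESeq2 in all 7 comparisons. Of the 7 regulators of glycolysis, those with the smallest p-values in the averaged comparisons were Pfkfb2 (0.08 ± 0.05 between genotypes, adjusted p = 0.47), Pfkfb1 (0.39 ± 0.27, 0.473) and Pfkfb4 (0.07 ± 0.1, 0.779), the kinases related to Pfkfb3. Pfkfb1 was near the bottom of detection, at 0.305 to 0.955 CPM.

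Of the 6 tested lactate genes, all 6 had lower fitted values in AGR cKO, with a median log2 fold change of -0.43 and no call. Over all genes the median was 0, with 9692 of 19163 lower. The endothelial and microglial markers, 12 of 12 lower in each list, had medians of -0.96 and -1.12 in the same comparison, and their part in the lactate list was not tested. Bsg, the chaperone that brings MCT1 to the membrane, was at 1020, 368 and 437 CPM in Cre- control, 654, 606 and 351 CPM in Cre- ESD, 318, 369 and 504 CPM in AGR cKO control, and 367, 400 and 384 CPM in AGR cKO ESD. Its highest values lay in the same 3 libraries as those of Slc16a1, and its averaged genotype difference was -0.55 ± 0.24 (adjusted p = 0.233). Slc16a7, the transporter MCT2, was low at 1.09 to 3.34 CPM and had -0.49 ± 0.2 (0.2). Hcar1, a lactate receptor, was at 0.501 to 2.36 CPM and had -0.37 ± 0.31 (0.57).

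Of the 14 genes of pyruvate entry into mitochondria, Pdk2, a kinase that switches off pyruvate dehydrogenase, had an averaged genotype difference of -0.21 ± 0.09 (adjusted p = 0.205), and Pdp1, the opposing phosphatase, had 0.14 ± 0.09 (0.416). Pcx, pyruvate carboxylase, the astrocyte enzyme that refills the citric acid cycle, had an averaged ESD difference of 0.2 ± 0.07 (0.44), and Pdk3 had 0.17 ± 0.07 (0.471). Under ESD 13 of the 14 genes had higher fitted values averaged over genotypes, with a median log2 fold change of 0.1 against -0.01 over all genes. Of all genes 9193 of 19163 were higher. In the same comparison 9 of 12 astrocyte markers were higher (median 0.08). Lower were 12 of 12 endothelial (-0.3), 8 of 10 mural and fibroblast (-0.47) and 11 of 12 neuronal markers (-0.31). The part of these cells in the pyruvate list was not tested.

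The remaining genes of the set were each matched with the 3 genes most like them over the 12 libraries. For Ldhb these were Hdhd2 (r = 0.973), Phkb (0.947) and Ndufa13 (0.94). Phkb encodes a subunit of phosphorylase kinase, which activates glycogen phosphorylase. For Pygb they were Mrpl48 (0.965), Arnt2 (0.963) and Psph (0.959). For Pfkm they were Zfyve21 (0.96), Dcxr (0.95) and Psat1 (0.942). Psph and Psat1 both act in the synthesis of serine from a glycolytic intermediate. For Aldoa they were Spg7 (0.94), Gm1821 (0.911) and Taf10 (0.9), for Ldha Prelid1 (0.926), Slc25a39 (0.901) and Ccnd1 (0.894), and for Hk1 Trim27 (0.925), Trim28 (0.905) and Cdc37 (0.879). For Pfkfb3 they were Ap1m1 (0.922), Pde4a (0.92) and A230072C01Rik (0.916). Gys1 had Csnk2b (0.886), Pgam5 (0.865) and, within the set itself, Aldoa (0.838). Ldhb, Pygb and Pfkm each had their lowest level in the first Cre- control library. The part of this library, and of the cell mixture, in these r values was not tested.

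The genes lie apart in the deposited transcript table (mm10): Slc2a1 at chr4:119108745-119137330, Hk1 at chr10:62268855-62379920, Pfkm at chr15:98092589-98132447, Slc16a1 at chr3:104638664-104658462 and Ldhb at chr6:142490249-142507957. Pfkfb3 (chr2:11471430-11554071) and Pygb (chr2:150786796-150831748) share chromosome 2. Aldoa (chr7:126795234-126800994), Ldha (chr7:46842274-46855627) and Gys1 (chr7:45434839-45456617) share chromosome 7. Aldoa and Ldha have near-identical processed copies, and Slc2a1, Hk1, Pfkm, Pfkfb3, Ldha and Gys1 overlap other annotated genes. How such reads were assigned is not given in the sources used here, so the counts of these genes are uncertain to that extent.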

How the data were processed

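The authors deposited whole-number read counts, FPKM and TPM per gene and per transcript for all 12 libraries. Per the submitters' processing notes, Trimmomatic, HISAT2 2.1.0, Bowtie2, StringTie 1.3.4b and DESeq2 were used with the mm10 build, and their roles and the strand setting are not given in the sources used here. Per the labels' protocols, 1 µg of RNA with an integrity number above 7.0 entered a stranded mRNA library. Groups follow the sample titles, since the number inside the genotype labels counts up with the replicate, and column names with M and P were read as Cre- and AGR cKO.

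Gene counts as deposited were tested with edgeR 4.0.16 (R 4.3.3) by the quasi-likelihood method, with TMM scaling, its default low-count filter, 1 mean per group, 8 residual degrees of freedom and Benjamini-Hochberg adjustment over all 19163 genes tested. Transcript counts were tested in the same way over 62862 transcripts. DESeq2 1.42.0 and limma 3.58.1 on log2 of the deposited TPM plus 1 or 0.1 were alternatives, as were other scalings and filters, a replicate block, marker covariates and leaving out each library. The deposited FPKM served to check the order of levels that the deposited TPM gave. The Ldha to Ldhb ratio of TPM was compared by exact permutation with scipy 1.17.1. The scripts were tested on simulated data.

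The 10 genes and all lists were chosen with earlier results of these data known. Of each pathway list, called genes are named, or else the 2 with the smallest p in each averaged comparison. Depth was 42603546 to 52130081 counts per library.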

Additional observations from a re-analysis of the deposited data

How the results depend on the processing

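The number of the 10 genes called stayed at 0 in all 7 comparisons under every alternative run, except in the averaged genotype comparison, where it was 1 with DESeq2 and 0 to 1 over the 12 leave-one-out fits. The single gene was Slc2a1 in both cases. The reported test did not treat replicate numbers as pairs. Of 18 same-numbered pairs, 7 had a correlation of deviations over 0.1, and r ran from -0.1 to 0.23. Pairs with different numbers were not compared, so whether the numbers pair the libraries was not settled. With the replicate block 0 of the 10 genes were called in any comparison, and Slc2a1 had -0.66 (adjusted p = 0.111). No member transcript was called under any alternative.

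The number of called pathway genes in the averaged genotype comparison, 5 in the reported test, was 11 with DESeq2, 3 without a filter on low counts, 0 with the microglial covariate, 6 with the replicate block and 1 to 7 over the leave-one-out fits, lowest without the second AGR cKO control library and highest without the first Cre- control library. The Ldha to Ldhb difference between all libraries of the genotypes ranged from 0.02 to 0.23 in the exact tests with 1 library left out. The order of levels was the same in FPKM for 10 of 10 genes.

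Some values changed sign. With the microglial covariate, Slc16a1 between genotypes was 0.24 in control, 0.11 under ESD and 0.18 averaged, and Pygb was -0.05 under ESD and -0.04 averaged. Without the first Cre- control library, ESD in Cre- gave 0.31 for Slc2a1, -0.09 for Pfkm, 0.05 for Ldha and 0.49 for Slc16a1, genotype in control gave 0.05 for Ldha and -0.03 for Pygb, and averaged ESD gave 0.05 for Slc16a1. The cause of these changes was not tested. Over all leave-one-out fits the ranges for ESD in Cre- were -0.25 to 0.31 for Slc2a1, -0.09 to 0.14 for Pfkm, -0.23 to 0.05 for Ldha and -0.53 to 0.49 for Slc16a1. They were -0.24 to 0.05 for Ldha and -0.03 to 0.14 for Pygb between genotypes in control, and -0.46 to 0.05 for Slc16a1 under averaged ESD.

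Counts over all genes varied more. The averaged genotype comparison called 668 genes, and 1711 with DESeq2, 79 with the microglial covariate and 151 to 932 with 1 library left out. Genotype under ESD called 200, and 783 with DESeq2, 100 without a filter, 4 with the microglial covariate, 0 with only the 2 groups compared and 2 to 280 with 1 library left out. Genotype in control called 3, and 265 with DESeq2, 31 with only the 2 groups compared, 9 with the endothelial covariate, 0 with the microglial one and 0 to 63 with 1 library left out. DESeq2 also called 24 genes for ESD in Cre-, 17 for ESD in AGR cKO, 32 for averaged ESD and 9 for the interaction, where edgeR called 0. Depth limits the genes near 1 CPM, such as Pfkfb1 and Hcar1, more than any of the 10.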

Other observations

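Hk2, the hexokinase next to Hk1 in level, took the following shares of hexokinase TPM, 12.7% ± 2.17 in Cre- control, 20% ± 3.11 in Cre- ESD, 9.47% ± 2.75 in AGR cKO control and 11.7% ± 3.81 in AGR cKO ESD (SD, n = 3). The Hk2 log2 fold change between genotypes was -0.67 ± 0.22 averaged (edgeR, adjusted p = 0.113) and that for ESD was 0.5 ± 0.22 averaged (adjusted p = 0.467), and edgeR called neither. DESeq2 called Hk2 lower in AGR cKO in the averaged comparison. The gene was picked after its values were seen.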
